A study of Homo sapiens with 24 samples.

Results

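The ER chaperones and folding stress genes followed here were HSPA5, HSP90B1, CALR, HYOU1, DNAJB9, DNAJC3, SDF2L1, PDIA4, HERPUD1 and XBP1, taken as the rows of the deposited count table whose Ensembl gene identifiers map to these symbols. All 10 genes were present among the 14585 genes of the table, and all 10 passed the filter on low counts in both cell lines, where 13633 genes were tested in A549 and 13875 in Huh7. RNA sequencing was done on 24 libraries, 12 from A549, a human lung carcinoma cell line, and 12 from Huh7, a human hepatocellular carcinoma cell line. In each line 3 libraries came from control cells and 3 each from cells treated with extracts of Pulsatilla chinensis (P. chinensis), Bupleurum chinense (B. chinense) or Polyporus umbellatus (P. umbellatus), which are herbs and a fungus used in Traditional Chinese Medicine. The labels give every group, controls included, the genotype WT. The extracts were made with ethanol, freeze-dried and taken up in DMSO. The dose and time used for the sequenced cells, and whether the control cells received DMSO, are not given in the sources used here. Nothing says that the 3 libraries of a group came from separate cultures, so the p-values measure the spread between these libraries, which may be technical. Each condition is also represented by a single cell line per tissue.

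Secreted and membrane proteins fold inside the endoplasmic reticulum (ER), where the Hsp70 chaperone BiP, encoded by HSPA5, works with co-chaperones, lectin chaperones and disulfide isomerases. When unfolded protein builds up, the sensors IRE1, PERK and ATF6 start the unfolded protein response. IRE1 splices XBP1 mRNA so that it encodes an active transcription factor, ATF6 is cleaved to release one, and PERK slows translation while favouring ATF4 and its target DDIT3. ATF6 and spliced XBP1 bind ER stress response elements and raise the genes of chaperones and of ER-associated degradation. Hepatocyte-derived cells, which secrete plasma proteins, depend heavily on this folding machinery.

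Many genes of ER chaperones are known for a shared promoter sequence, so its matches in the 10 genes are shown ahead of the values. RefSeq promoters on GRCh38.p14, running from 250 bases before to 50 bases after each transcription start, were found for 10 of the 10 genes and were searched on both strands for the ER stress response element (ERSE, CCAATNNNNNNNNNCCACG) and for ERSE-II (ATTGGNCCACG). The fixed letters of each element are in capitals below, and each sequence is written 5′ to 3′ on the strand that holds the element, with its coordinates on GRCh38.p14.
HSPA5, ERSE, chr9:125241386-125241414, minus strand: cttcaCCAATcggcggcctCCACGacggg
HSP90B1, ERSE, chr12:103930211-103930239, plus strand: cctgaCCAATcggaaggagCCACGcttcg
CALR, ERSE, chr19:12938379-12938407, minus strand: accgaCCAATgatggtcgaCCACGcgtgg
XBP1, ERSE, chr22:28800598-28800626, minus strand: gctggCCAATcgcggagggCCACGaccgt
HERPUD1, ERSE-II, chr16:56932016-56932044, plus strand: cggacgccgATTGGgCCACGttgggagag
HYOU1, ERSE-II, chr11:119057265-119057293, plus strand: cgcgtactcATTGGaCCACGtcccaggcc
SDF2L1, ERSE-II, chr22:21642105-21642133, minus strand: agggttttgATTGGtCCACGcttccgagg

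The element of HSPA5 lay 66 to 48 bases before the transcription start and that of XBP1 52 to 34 bases before it. HSP90B1 held another ERSE on the opposite strand at chr12:103930316-103930344, and HYOU1 another ERSE-II at chr11:119057371-119057399. In total 7 of the 10 genes (70.0%) held at least 1 of the elements in a promoter, 4 of them ERSE and 3 of them ERSE-II. Among all 35116 promoters of the RefSeq table, 0.0769% held ERSE, 0.0541% held ERSE-II and 0.131% held either, so that no promoter held both. By the same count of promoters, 7 of the 12 promoters of the 10 genes (58.3%) held either. Counted by gene, either was held by 0.161% of 27305 genes, and by 0.264% of the 11758 genes that are also in the deposited table. No match to these letters was present in the windows of DNAJB9, DNAJC3 or PDIA4. A match is a description of the letters, not a site or a cause, and the genes were chosen with their known regulation in view.

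The libraries held 6803704 to 24345541 estimated counts, with a median of 10515192. Line markers fitted the labels, since the keratin gene KRT7 was at 1553 to 1773 CPM (counts scaled to a common library size) in A549 against at most 0.123 in Huh7, and the albumin gene ALB at 2751 to 4879 CPM in Huh7 against at most 0.714 in A549. KRT8 and KRT18, also fixed as A549 markers, were high in both lines. The Huh7 P. umbellatus libraries stood apart in 2 ways. The fold change against control ran with the GC content of the transcript across genes (Spearman's rho −0.669, a description over 13875 genes), against −0.109 to 0.127 in the other herb comparisons. Replicate 2 of that group also lay far from its partners, with a standard deviation of log2 differences of 0.629 compared with 0.252 to 0.508 in the other 23 libraries. Calls of the 10 genes that rest on those libraries are given beside values corrected for GC content and transcript length, a correction chosen after seeing the data. In bulk RNA, fewer cells of a kind and less RNA per cell cannot be told apart.

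In control cells CALR was the most abundant of the 10 genes per transcript length in both lines, and XBP1 was the gene that differed most between them. Levels per length are counts divided by the length of the canonical transcript and then scaled to the same sum over the genes tested in both lines in each library, in units like TPM, and are given as mean ± SD with n = 3. CALR, the calcium-binding lectin chaperone calreticulin, stood first in both lines at 789.9 ± 28.3 in A549 and 1579 ± 18.1 in Huh7. HSP90B1, the ER Hsp90 paralog GRP94, was at 420.3 ± 8.18 in A549 and 485.5 ± 16.5 in Huh7. HSPA5 followed closely, at 406.7 ± 0.464 in A549 and 427.6 ± 8.21 in Huh7. In A549 the lowest HSP90B1 library (412.7) lay above the highest HSPA5 library (407.2). PDIA4, a disulfide isomerase, was at 275.8 ± 6.02 in A549 and 317.1 ± 10.3 in Huh7. XBP1 was at 97.7 ± 7.41 in A549 and at 924.9 ± 19.4 in Huh7, where it ranked above every member but CALR. In A549 HYOU1, DNAJC3, SDF2L1, HERPUD1 and DNAJB9 lay between 17.1 and 49.7, and the ranges of DNAJC3 (40.9 to 42.5) and SDF2L1 (36.3 to 44.6) overlapped. In Huh7 the same 5 genes lay between 28.0 and 148.1, with HYOU1 highest and HERPUD1 lowest.

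Of the 10 genes, 5 differed between control A549 and control Huh7 cells (edgeR quasi-likelihood test, Benjamini-Hochberg adjusted p below 0.05), 1 higher and 4 lower in A549, where 68.7% of the 12924 genes tested in both lines differed (33.8% higher, 34.9% lower). XBP1 was lower in A549 by 3.13 on the log2 scale (log2 fold change −3.13 ± 0.060 SE, adjusted p = 8.813e-21 by edgeR). HYOU1, the large ER Hsp70-like chaperone, differed by −1.46 ± 0.11 (edgeR adjusted p = 1.716e-10). DNAJB9, a J-domain co-chaperone of BiP, differed by −1.35 ± 0.12 (edgeR adjusted p = 2.079e-09), and CALR by −0.88 ± 0.052 (edgeR adjusted p = 1.171e-12). DNAJC3, another J-domain protein (p58IPK), was the gene higher in A549, by 0.37 ± 0.074 (edgeR adjusted p = 0.000128). HSPA5 differed by 0.04 (95% interval −0.05 to 0.14) and HSP90B1 by −0.09 (−0.26 to 0.08), neither past the threshold. SDF2L1 missed it at −0.60 ± 0.27 (edgeR adjusted p = 0.0533) and passed when A549 P. umbellatus replicate 1 (0.0470), A549 P. umbellatus replicate 2 (0.0403), Huh7 P. umbellatus replicate 2 (0.00618) or Huh7 P. umbellatus replicate 3 (0.0378) was left out, and in 7 of 10 other settings.

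**Figure D1:**
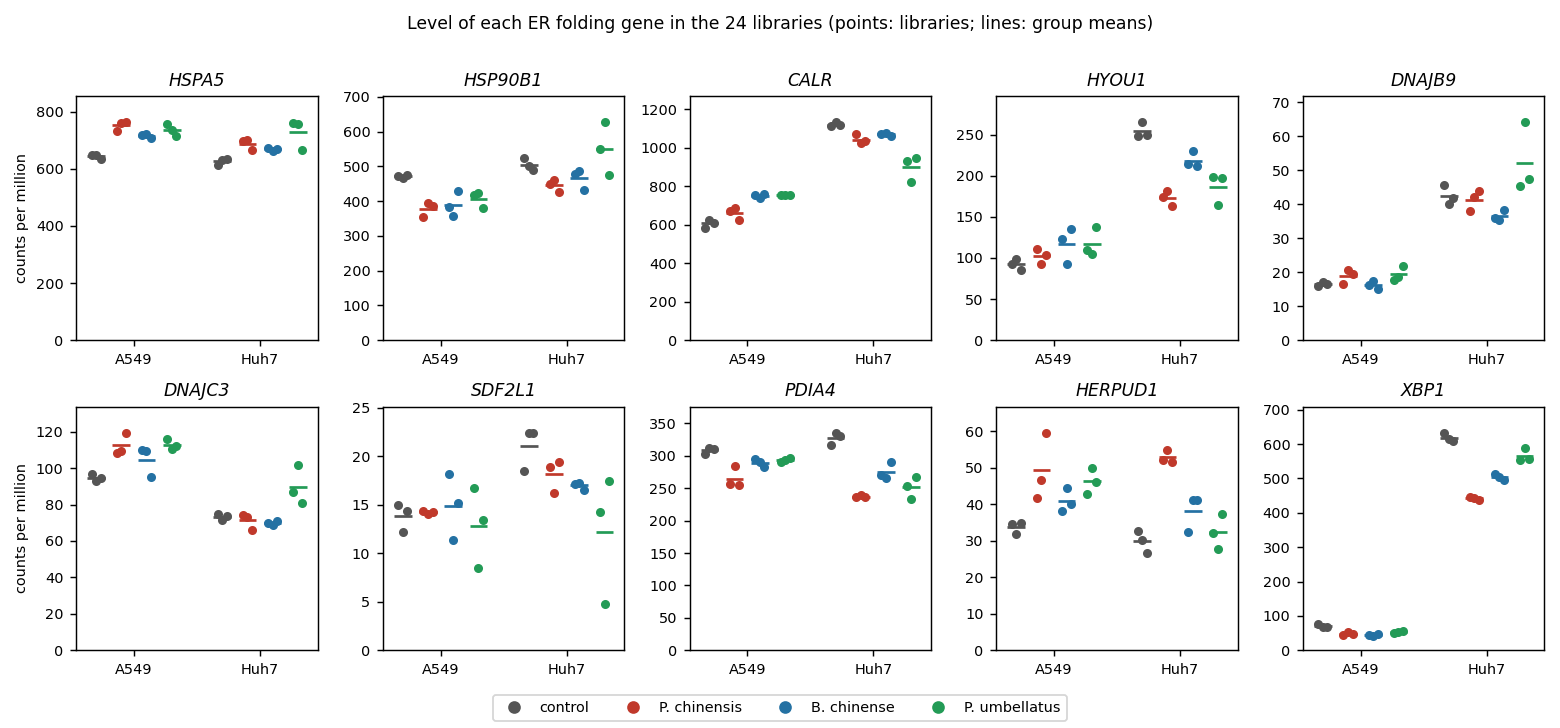
Level of each of the 10 genes in every library, in CPM scaled by TMM within each line on linear axes that start at 0, by line and treatment, with 1 point per library, 3 per group, and a short line at each group mean. HSPA5 points of the herb groups lie above the control points in both lines, XBP1 and PDIA4 points lie below them, and XBP1 in Huh7 sits far above XBP1 in A549.

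The question of the design was how each extract changed expression in each line against control cells. HSPA5 was higher and HSP90B1 lower with every herb in A549, while XBP1 was lower with every herb in A549 and with P. chinensis and B. chinense in Huh7. The 3 herb comparisons of a line share its control libraries and are not independent of each other. Where 3 values are given for a line in a row, they stand for P. chinensis first, then for B. chinense, then for P. umbellatus. With P. chinensis 7 of the 10 genes changed in A549 (4 rose, 3 fell), where 32.8% of all genes tested were called (15.8% higher, 17.1% lower). With B. chinense 4 changed in A549 (2 rose, 2 fell) against a background of 28.1% (13.1% higher, 15% lower), and with P. umbellatus 6 changed (4 rose, 2 fell) against 28.2% (13.4% higher, 14.8% lower). In Huh7 4 of the 10 genes changed with P. chinensis (1 rose, 3 fell) where 20.9% of genes were called (10.5% higher, 10.5% lower). There 1 changed with B. chinense (it fell) where 1.28% were called (0.519% higher, 0.757% lower), and 5 with P. umbellatus (2 rose, 3 fell) where 37% were called (19.3% higher, 17.8% lower). The median log2 fold change of the 10 genes was 0.14, 0.13 and 0.21 in A549, for the 3 herbs in that order, and −0.14, −0.16 and −0.00 in Huh7, while the median over all genes tested lay between −0.01 and 0.03. Levels below are CPM scaled by TMM within each line and are given for replicates 1, 2 and 3 in that order.

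HSPA5 (ENSG00000044574, chr9:125234853-125241382, minus strand) encodes BiP, which binds exposed hydrophobic stretches of unfolded chains and also holds the stress sensors inactive. In A549 its level was 647, 650 and 636 CPM in control cells and 733, 760 and 762 CPM with P. chinensis. The level with B. chinense was 719, 721 and 709 CPM, and with P. umbellatus 757, 737 and 716 CPM. Every treated A549 library lay above every control library. HSPA5 rose by 0.22 ± 0.036 (log2 fold change ± SE) with P. chinensis, which is 1.17-fold (edgeR adjusted p = 0.000256). It rose by 0.15 ± 0.036 with B. chinense (edgeR adjusted p = 0.00543) and by 0.19 ± 0.036 with P. umbellatus (edgeR adjusted p = 0.000995). In Huh7 the control libraries were at 612, 631 and 634 CPM. With P. chinensis the Huh7 level was 696, 700 and 664 CPM and with B. chinense 671, 664 and 668 CPM. With P. umbellatus it was 759, 757 and 666 CPM. Here too no treated library fell to the control range, but the test was passed for P. umbellatus alone, at 0.22 ± 0.060 (edgeR adjusted p = 0.0160). That call was lost without Huh7 control replicate 1 (0.20, adjusted p = 0.0593 by edgeR) or control replicate 2 (0.19, 0.0648), and after correction for GC content and length the difference was 0.08 (adjusted p = 0.175). The Huh7 difference with P. chinensis was 0.13 ± 0.060 (edgeR adjusted p = 0.140) and passed the test without P. umbellatus replicate 2 (0.0389) or replicate 3 (0.0371), while that with B. chinense was 0.09 ± 0.060 (0.604). The P. chinensis difference also passed without all Huh7 P. umbellatus libraries (edgeR adjusted p = 0.00277), with the 6 compared libraries alone (0.00498) and with upper quartile scaling (0.04285). It did not pass with the replicate block (0.162) or after the GC correction (0.08, 0.141). With the 6 compared libraries alone the P. umbellatus call was lost (0.18, edgeR adjusted p = 0.151).

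HSP90B1 (ENSG00000166598, chr12:103930107-103953931, plus strand) encodes GRP94, which finishes the folding of a restricted set of clients such as integrins. Its gene overlaps UQCC6 on the opposite strand, and since the strand setting of the counting is not given in the sources used here, reads of the shared stretch cannot be told apart. In A549 the level was 474, 467 and 476 CPM in control cells and 354, 394 and 386 CPM with P. chinensis. With B. chinense it was 384, 356 and 429 CPM and with P. umbellatus 418, 423 and 381 CPM. HSP90B1 thus lay below the control range in all 9 treated A549 libraries, opposite to HSPA5 in the same cells. It fell by 0.32 on the log2 scale with P. chinensis (−0.32 ± 0.064, edgeR adjusted p = 0.00139) and by 0.28 with B. chinense (−0.28 ± 0.064, edgeR adjusted p = 0.00480). The fall of 0.21 with P. umbellatus (−0.21 ± 0.064, edgeR adjusted p = 0.0219) was lost without A549 control replicate 1 (adjusted p = 0.0522), control replicate 3 (0.0578) or P. umbellatus replicate 3 (−0.17, 0.0992). It was also lost after the GC correction (−0.13, adjusted p = 0.131) and with upper quartile scaling (−0.17, 0.0569), and the corrected fall with B. chinense was 0.18 (−0.18, 0.0395). In Huh7 no HSP90B1 difference from control was called: it was −0.18 ± 0.090, −0.11 ± 0.090 and 0.13 ± 0.090 for the 3 herbs in order (edgeR adjusted p of 0.196, 0.710 and 0.288). The P. chinensis value passed without P. umbellatus replicate 2 (−0.18, 0.0432) and the P. umbellatus value without P. umbellatus replicate 3 (0.22, 0.0275), and the P. umbellatus value turned to −0.09 after the GC correction.

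CALR (ENSG00000179218, chr19:12938578-12944489, plus strand) encodes calreticulin, which retains monoglucosylated glycoproteins for folding and buffers ER calcium. In A549 its level was 585, 627 and 608 CPM in control cells and 673, 687 and 623 CPM with P. chinensis. The level with B. chinense was 754, 738 and 759 CPM, and with P. umbellatus 754, 754 and 753 CPM. The B. chinense and P. umbellatus libraries stood clear of the control libraries, whereas P. chinensis replicate 3 fell inside their range. CALR rose by 0.31 ± 0.043 with B. chinense (edgeR adjusted p = 9.478e-05) and by 0.31 ± 0.043 with P. umbellatus (edgeR adjusted p = 7.169e-05). The rise of 0.12 ± 0.043 with P. chinensis (edgeR adjusted p = 0.0371) was lost without A549 control replicate 1 (0.128) or 3 (0.0766), without P. chinensis replicate 1 (0.114) or 2 (0.133), without P. umbellatus replicate 3 (0.0505), and after the GC correction (0.0591). In Huh7, where CALR was already more abundant, the level was 1111, 1131 and 1118 CPM in control cells. It was 1069, 1023 and 1034 CPM with P. chinensis and 1072, 1075 and 1062 CPM with B. chinense. With P. umbellatus it was 933, 822 and 946 CPM. All 9 treated Huh7 libraries were below the controls, the reverse of the order in A549. CALR fell by 0.31 with P. umbellatus in Huh7 (−0.31 ± 0.059, edgeR adjusted p = 0.00263), but the corrected value was −0.07 (adjusted p = 0.200). The differences with P. chinensis (−0.10 ± 0.059, edgeR adjusted p = 0.243) and B. chinense (−0.07 ± 0.059, 0.750) were not called, although the former passed without P. umbellatus replicate 2 (0.0189).

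HYOU1 (ENSG00000149428, chr11:119044188-119057227, minus strand) encodes GRP170, a large Hsp70-like protein that serves as a nucleotide exchange factor for BiP. In Huh7 its level was 248, 265 and 249 CPM in control cells and 175, 182 and 163 CPM with P. chinensis. With B. chinense it was 214, 230 and 211 CPM and with P. umbellatus 198, 164 and 197 CPM. All 9 treated Huh7 libraries lay below the control libraries. HYOU1 fell by 0.55 with P. chinensis (−0.55 ± 0.080, edgeR adjusted p = 0.000451), to 0.682 of the control level. It fell by 0.45 with P. umbellatus (−0.45 ± 0.081, edgeR adjusted p = 0.00230) and by 0.18 on the log2 scale after the GC correction (adjusted p = 0.0416). The difference with B. chinense, −0.22 ± 0.080, was not called (edgeR adjusted p = 0.266) but passed without P. umbellatus replicate 2 (0.0229). In A549 the level was lower and more scattered, at 92.7, 98.8 and 85.4 CPM in control cells. It was 111, 92.5 and 104 CPM with P. chinensis. The B. chinense libraries were at 123, 92.7 and 135 CPM and those of P. umbellatus at 109, 105 and 138 CPM. Only the P. umbellatus libraries stood wholly above the controls, and no A549 difference was called: it was 0.15 ± 0.13, 0.34 ± 0.13 and 0.34 ± 0.13 with edgeR adjusted p of 0.416, 0.0690 and 0.0644. The B. chinense value passed without B. chinense replicate 2 (0.48, 0.00842) or P. umbellatus replicate 3 (0.0459), and the P. umbellatus value without B. chinense replicate 2 (0.0249), B. chinense replicate 3 (0.0484) or P. umbellatus replicate 2 (0.0476).

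Of the co-chaperones of BiP, DNAJC3 rose in A549 and the other two were not called. DNAJC3 (ENSG00000102580, chr13:95677139-95794988, plus strand) delivers unfolded chains to BiP. In A549 its level was 96.5, 93.1 and 94.6 CPM in control cells, 109, 110 and 119 CPM with P. chinensis and 116, 110 and 112 CPM with P. umbellatus, with no overlap. DNAJC3 rose by 0.25 ± 0.062 with P. chinensis (edgeR adjusted p = 0.00635) and by 0.25 ± 0.061 with P. umbellatus (edgeR adjusted p = 0.00643). With B. chinense it was 110, 109 and 95 CPM, and the difference of 0.15 ± 0.062 was not called (edgeR adjusted p = 0.0999), though it passed without B. chinense replicate 3 (0.21, 0.0193). In Huh7 the level was 74.8, 71.4 and 73.8 CPM in control cells and 86.7, 102 and 80.7 CPM with P. umbellatus. That rise of 0.29 ± 0.086 (edgeR adjusted p = 0.0226) was lost without any 1 of the Huh7 control libraries (adjusted p of 0.0515, 0.0972 and 0.0599 without replicates 1, 2 and 3) and was −0.01 after the GC correction. With P. chinensis and B. chinense the Huh7 difference was −0.04 ± 0.085 and −0.07 ± 0.086, neither called.

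DNAJB9 (ENSG00000128590, chr7:108569867-108574850, plus strand) encodes ERdj4, which directs BiP to clients and to the IRE1 sensor. It was called in none of the 6 herb comparisons. Its A549 libraries ran from 15.0 to 21.9 CPM over all groups. In Huh7 it was 45.8, 40.0 and 41.8 CPM in control cells and 45.4, 64.1 and 47.4 CPM with P. umbellatus, a difference of 0.29 ± 0.12 (edgeR adjusted p = 0.0776) that passed without P. umbellatus replicate 1 (0.38, 0.0359) or 3 (0.36, 0.0430) and became −0.02 after the GC correction. SDF2L1 (ENSG00000128228, chr22:21642302-21644299, plus strand) encodes a partner of the BiP cycle and was the least abundant of the 10 genes by counts in A549, at 8.47 to 18.2 CPM. It too was called in none of the 6 comparisons. Its Huh7 level was 18.5, 22.4 and 22.4 CPM in control cells and 14.3, 4.75 and 17.5 CPM with P. umbellatus. P. umbellatus replicate 2 lay far below its partners, and the difference was −0.76 ± 0.30 (edgeR adjusted p = 0.0606), which became −0.40 without replicate 2 (0.0384) and −1.12 without replicate 3 (0.0112). With 65.1% GC, SDF2L1 is the most GC-rich of the 10 transcripts, and its corrected value was 0.17.

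PDIA4 (ENSG00000155660, chr7:149003062-149028662, minus strand) encodes ERp72, which forms and rearranges disulfide bonds. In Huh7 its level was 316, 336 and 331 CPM in control cells and 236, 239.2 and 236 CPM with P. chinensis. With B. chinense it was 271, 265 and 290 CPM and with P. umbellatus 254, 233 and 268 CPM. PDIA4 was below the control range in all 9 treated Huh7 libraries. It fell by 0.47 with P. chinensis (−0.47 ± 0.065, edgeR adjusted p = 0.000330), to 0.724 of the control level. It fell by 0.38 with P. umbellatus (−0.38 ± 0.065, edgeR adjusted p = 0.00191) and still by 0.26 after the GC correction (adjusted p = 0.00101). The B. chinense difference of −0.25 ± 0.065 was not called (edgeR adjusted p = 0.0957) but passed without P. umbellatus replicate 2 (0.00631) or 3 (0.0414). In A549 the level was 302, 312 and 310 CPM in control cells and 256, 284 and 255 CPM with P. chinensis, a fall of 0.22 (−0.22 ± 0.046, edgeR adjusted p = 0.00206). The A549 libraries of B. chinense (282 to 295 CPM) and P. umbellatus (290 to 296 CPM) also lay below the control libraries, but their differences of −0.09 ± 0.046 and −0.07 ± 0.046 were not called (edgeR adjusted p of 0.167 and 0.282).

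HERPUD1 (ENSG00000051108, chr16:56932142-56944864, plus strand) encodes a membrane protein that assembles the ubiquitin ligase complex of ER-associated degradation, and it showed the largest rise among the 10 genes. In Huh7 its level was 32.7, 30.1 and 26.7 CPM in control cells and 52.1, 54.9 and 51.7 CPM with P. chinensis. It rose by 0.82 ± 0.12 there, which is 1.77-fold (edgeR adjusted p = 0.000580). The other herbs in Huh7 overlapped with control cells, at 32.3, 41.3 and 41.1 CPM with B. chinense and 32.0, 27.8 and 37.3 CPM with P. umbellatus. Neither difference was called (0.36 ± 0.13 and 0.12 ± 0.13, edgeR adjusted p of 0.241 and 0.479). The B. chinense value passed without the Huh7 P. umbellatus libraries (0.36, edgeR adjusted p = 0.0412), but not with the 6 compared libraries alone (0.36, 0.0878). In A549 the level was 34.5, 32.0 and 34.8 CPM in control cells and 41.8, 46.5 and 59.6 CPM with P. chinensis. With B. chinense it was 38.0, 44.4 and 40.0 CPM and with P. umbellatus 42.9, 49.9 and 46.0 CPM. All 9 treated A549 libraries were above the controls, and the 3 P. chinensis libraries were widely spread. HERPUD1 rose by 0.55 ± 0.12 with P. chinensis (edgeR adjusted p = 0.00241) and by 0.45 ± 0.12 with P. umbellatus (edgeR adjusted p = 0.0102). The B. chinense value of 0.27 ± 0.12 was not called (edgeR adjusted p = 0.108) but passed without P. chinensis replicate 3 (0.0409).

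XBP1 (ENSG00000100219, chr22:28794555-28800597, minus strand) encodes the transcription factor whose mRNA IRE1 splices. The values are sums over the gene, so the spliced and unspliced forms cannot be told apart. In A549 its level was 76.9, 66.5 and 68.6 CPM in control cells and 45.3, 52.2 and 48.0 CPM with P. chinensis. With B. chinense it was 43.9, 42.5 and 47.2 CPM and with P. umbellatus 51.4, 53.7 and 57.2 CPM. XBP1 lay below every control library in all 9 treated A549 libraries. It fell by 0.54 with P. chinensis (−0.54 ± 0.081, edgeR adjusted p = 0.000137). It fell by 0.66 with B. chinense (−0.66 ± 0.083, edgeR adjusted p = 3.278e-05), to 0.631 of the control level. With P. umbellatus the fall was 0.39 (−0.39 ± 0.080, edgeR adjusted p = 0.00226). The same direction held in Huh7 from a far higher level, at 633, 613 and 608 CPM in control cells. It was 447, 444 and 436 CPM with P. chinensis. The B. chinense libraries were at 514, 503 and 496 CPM and those of P. umbellatus at 553, 589 and 555 CPM. XBP1 fell by 0.48 with P. chinensis (−0.48 ± 0.051, edgeR adjusted p = 4.603e-05). It was the gene of the 10 called with B. chinense in Huh7, with a fall of 0.29 (−0.29 ± 0.051, edgeR adjusted p = 0.0149), a call that was lost without B. chinense replicate 2 (0.0642) or 3 (0.0727) or without control replicate 1 (0.0935), 2 (0.0585) or 3 (0.0726). The P. umbellatus difference of −0.13 ± 0.051 missed the threshold (edgeR adjusted p = 0.0675), passed without P. umbellatus replicate 2 (0.00698), without B. chinense replicate 1 (0.0399), 2 (0.0400) or 3 (0.0400) or without P. chinensis replicate 1 (0.0451) or 2 (0.0441), and was −0.09 after the GC correction (adjusted p = 0.164).

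**Figure D2:**
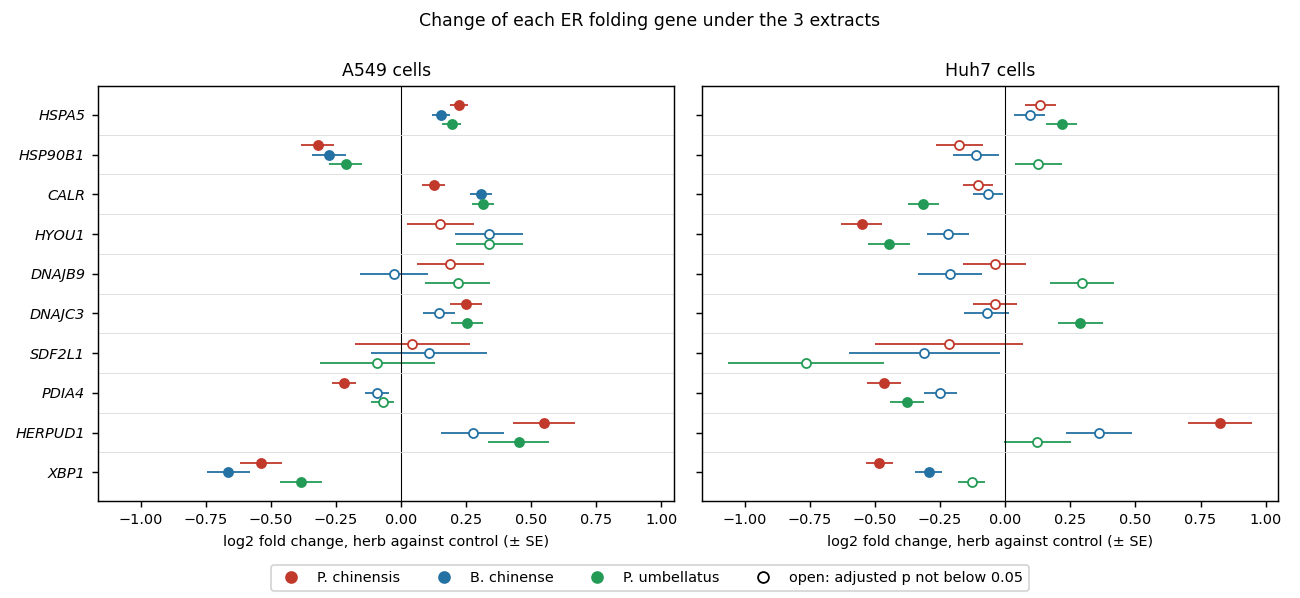
Log2 fold change of each gene against control cells (horizontal axis) for the 3 herbs in A549 and in Huh7, with bars of ± SE from the edgeR fit, n = 3 libraries per group, and filled points for an adjusted p below 0.05. XBP1 lies left of 0 in all 6 comparisons and HSPA5 right of 0, while CALR and HYOU1 lie right of 0 in A549 and left of 0 in Huh7.

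Counting libraries alone, HSPA5 was higher than every control library in all 6 herb groups, and XBP1 and PDIA4 were lower in all 6. The share of all genes that did so in all 6 groups was not counted, and the groups of a line share its controls. Such agreement cannot be read as particular to these genes. In A549 the treated and control libraries of 6, 6 and 9 of the 10 genes did not overlap with the 3 herbs in order (3 higher and 3 lower, 3 and 3, and 6 and 3), where 45.1%, 40.4% and 41.6% of all genes tested did not overlap. In Huh7 the counts were 7 with P. chinensis (2 higher, 5 lower; background 53.3%), 9 with B. chinense (1 higher, 8 lower; 29.1%) and 7 with P. umbellatus (2 higher, 5 lower; 48.4%). These shares, and those of the calls above, are over all genes that passed the filter. They were not matched to the abundance of the 10 genes, so the counts cannot be read as an excess. Among the genes that hold an ERSE, HSPA5 was higher and XBP1 lower in all 6 groups. HSP90B1 was lower with every herb in A549 and with P. chinensis and B. chinense in Huh7, and overlapped with P. umbellatus in Huh7. CALR was higher in A549 with B. chinense and P. umbellatus, overlapped there with P. chinensis, and was lower with every herb in Huh7. A link of these directions to the element was not tested.

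The herbs were then compared directly with each other. In A549 none of the 10 genes differed between P. chinensis and B. chinense by edgeR (3 at an unadjusted p below 0.05, 1 past the adjusted threshold by DESeq2), where 1.45% of genes did (0.447% higher, 1% lower). Between B. chinense and P. umbellatus in A549 none differed (1 at an unadjusted p below 0.05, 0 by DESeq2), where 0.0513% did (0.022% higher, 0.0293% lower). Between P. chinensis and P. umbellatus 1 gene differed in A549 (background 3.01%, 0.814% higher and 2.19% lower), CALR, lower with P. chinensis by 0.19 (−0.19, edgeR adjusted p = 0.0294). This CALR call was lost without P. chinensis replicate 1 (0.0573) or 3 (0.120) or without P. umbellatus replicate 1 (0.0718), 2 (0.0849) or 3 (0.0941).

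In Huh7 3 of the 10 genes differed between P. chinensis and B. chinense, where 7.81% of genes did (3.89% higher, 3.91% lower). HERPUD1 was higher with P. chinensis by 0.47 (edgeR adjusted p = 0.0404), HYOU1 lower by 0.33 (−0.33, 0.0253) and XBP1 lower by 0.19 (−0.19, 0.0429). The calls held in 3, 7 and 4 of the 12 refits that left out 1 library for HERPUD1, HYOU1 and XBP1, with adjusted p of up to 0.186, 0.118 and 0.158. HERPUD1 was lost without any 1 of the B. chinense, control or P. chinensis libraries, HYOU1 without any 1 of the B. chinense libraries or P. chinensis replicate 1 or 3, and XBP1 without any 1 of the B. chinense or P. chinensis libraries or control replicate 1 or 3. Between P. chinensis and P. umbellatus 5 genes differed in Huh7 (background 35.4%, 16.5% higher and 18.8% lower), of which the clearest were HERPUD1, higher with P. chinensis by 0.70 (edgeR adjusted p = 0.00184), and XBP1, lower by 0.35 (−0.35, 0.000614), with corrected values of 0.71 (adjusted p = 0.00121) and −0.47 (1.675e-05). CALR was higher (0.21) and HSP90B1 (−0.30) and DNAJC3 (−0.33) lower with P. chinensis, but after the GC correction none of these 3 was called: CALR turned to −0.06 (adjusted p = 0.248), HSP90B1 was −0.14 (0.103) and DNAJC3 −0.02 (0.811). The CALR call was lost without P. chinensis replicate 1 (0.0571), that of HSP90B1 without P. chinensis replicate 1 (0.0543) or 3 (0.0796), and that of DNAJC3 without P. chinensis replicate 3 (0.0564). Between B. chinense and P. umbellatus 4 genes differed (background 27.3%, 12.6% higher and 14.6% lower), CALR higher with B. chinense (0.25) and DNAJB9 (−0.51), DNAJC3 (−0.36) and XBP1 (−0.17) lower. After the GC correction XBP1 alone of the 10 genes was called in that comparison (−0.20, adjusted p = 0.0201), while CALR was 0.03 (0.670), DNAJB9 −0.20 (0.159) and DNAJC3 −0.08 (0.399). DNAJB9 was lost without B. chinense replicate 1 (0.0575) or 2 (0.0577), DNAJC3 without B. chinense replicate 1 (0.0557), 2 (0.0572) or 3 (0.0512), and XBP1 without any 1 of the 9 libraries of the control, B. chinense and P. chinensis groups (adjusted p of up to 0.152).

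The 2 lines differed in how CALR, HYOU1 and PDIA4 responded. The test here was the interaction, that is, the log2 fold change against control in A549 minus that in Huh7, fitted over all 24 libraries and adjusted over 12924 genes. That fit scaled all 24 libraries together, so its values are not exact differences of those given per line. For HSPA5 with P. umbellatus the fits per line gave 0.19 in A549 and 0.22 in Huh7. The fit of 24 libraries gave 0.06 for that difference, with the other sign. For P. chinensis 4 of the 10 genes differed between lines, all with the higher value in A549, where 19.6% of genes differed (10.3% higher, 9.3% lower). HYOU1 differed by 0.76 ± 0.16 (edgeR adjusted p = 0.00165), PDIA4 by 0.30 ± 0.078 (0.00847) and CALR by 0.28 ± 0.073 (0.00814). PDIA4 fell in both lines and by more in Huh7, whereas HYOU1 fell in Huh7 and was not called in A549. DNAJC3 differed by 0.34 ± 0.10 (edgeR adjusted p = 0.0230), a call lost in 10 of 24 refits. These left out A549 control replicate 2 (0.0518), A549 P. chinensis replicate 3 (0.0640), Huh7 B. chinense replicate 1 (0.0554), 2 (0.0545) or 3 (0.0544), Huh7 control replicate 1 (0.0929), 2 (0.0570) or 3 (0.0871) and Huh7 P. chinensis replicate 2 (0.0594) or 3 (0.129).

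For B. chinense 3 genes differed between lines (background 11.6%, 5.8% higher and 5.8% lower). CALR differed by 0.41 ± 0.073 (edgeR adjusted p = 0.000574), HYOU1 by 0.60 ± 0.16 (0.0169) and XBP1 by −0.33 ± 0.087 (0.0143), the larger fall of XBP1 being in A549. HYOU1 was lost without A549 B. chinense replicate 3 (0.0566), A549 control replicate 3 (0.0503) or Huh7 control replicate 2 (0.0508), and XBP1 without A549 B. chinense replicate 2 (0.0512) or A549 control replicate 1 (0.0503). PDIA4 (0.20, 0.115) and DNAJC3 (0.26, 0.129) were not called but passed without Huh7 P. umbellatus replicate 2 (0.0452 and 0.0447).

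For P. umbellatus 3 genes differed (background 34.4%, 19.1% higher and 15.3% lower). CALR differed by 0.71 ± 0.073 (edgeR adjusted p = 5.945e-07), HYOU1 by 0.87 ± 0.16 (0.000354) and PDIA4 by 0.39 ± 0.079 (0.000772). After the correction for GC content and length these differences were 0.41 (adjusted p = 1.014e-05), 0.46 (0.0295) and 0.21 (0.00706). HSPA5 did not pass the interaction test for any herb, with differences of 0.14, 0.10 and 0.06 whose 95% intervals ran from 0.00 to 0.28, −0.04 to 0.24 and −0.08 to 0.20. The P. chinensis value passed after the GC correction (0.15, adjusted p = 0.0296) and with voom (0.14, 0.0158). HSP90B1 passed for P. umbellatus without Huh7 B. chinense replicate 3 (0.0453), Huh7 control replicate 1 (0.0498) or Huh7 P. umbellatus replicate 3 (0.00337) against −0.26 and an edgeR adjusted p of 0.0880 in all libraries, and was −0.03 after the GC correction (0.859). HERPUD1 (0.41, 0.0832) and SDF2L1 (0.75, 0.146) passed for P. umbellatus without Huh7 P. umbellatus replicate 3 (0.0393 and 0.0330), and XBP1 (−0.18, 0.117) without Huh7 P. umbellatus replicate 1 (0.0409) or 3 (0.0338) and after the GC correction (−0.25, 0.0273).

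**Figure D3:**
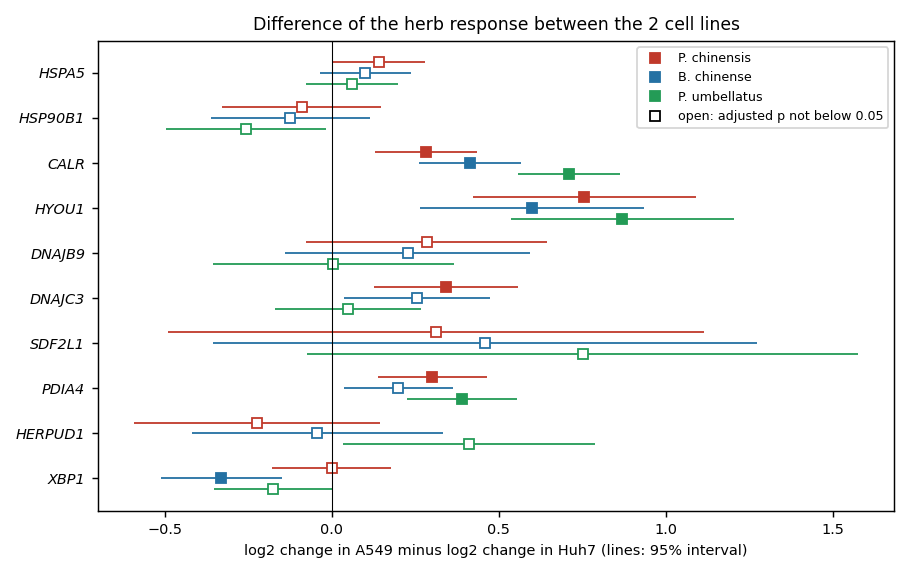
Difference between lines in the response of each gene to each herb, as the log2 fold change in A549 minus that in Huh7 with its 95% interval, over 24 libraries in 1 edgeR fit. CALR (0.28, 0.41 and 0.71) and HYOU1 (0.76, 0.60 and 0.87) lie right of 0 for all 3 herbs (P. chinensis first, P. umbellatus last), and the intervals of HSP90B1 include 0 for P. chinensis and B. chinense.

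The GC content of the 10 transcripts ran from 37.3% (DNAJB9) to 65.1% (SDF2L1). In Huh7 with P. umbellatus the median log2 fold change of all genes was 0.34 in the quintile of genes lowest in GC content and −0.61 in the quintile highest in it. The members were ordered alike there: DNAJB9 (37.3% GC), DNAJC3 (39.9%), HSP90B1 (41.8%), HSPA5 (46.1%) and HERPUD1 (47.1%) had positive differences, and XBP1 (49.5%), PDIA4 (51.9%), CALR (53.8%), HYOU1 (55.4%) and SDF2L1 (65.1%) negative ones. After the correction the calls of HYOU1 and PDIA4 held, and those of HSPA5, CALR and DNAJC3 did not. The correction also moved values past the threshold that were not called without it. These were CALR (−0.13, adjusted p = 0.0138) and HSP90B1 (−0.23, 0.00801) in Huh7 with P. chinensis, PDIA4 in Huh7 with B. chinense (−0.24, 0.00385) and DNAJC3 in A549 with B. chinense (0.18, 0.0304). Between control A549 and Huh7 cells they were PDIA4 (−0.14, 0.00347) and SDF2L1 (−0.68, 0.00264). Besides HSPA5 and XBP1, the line differences that passed after it were DNAJB9 for P. chinensis (0.40, 0.0349), DNAJC3 and PDIA4 for B. chinense (0.27, 0.0126 and 0.17, 0.0399) and DNAJC3 for P. umbellatus (0.28, 0.00813).

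**Figure D4:**
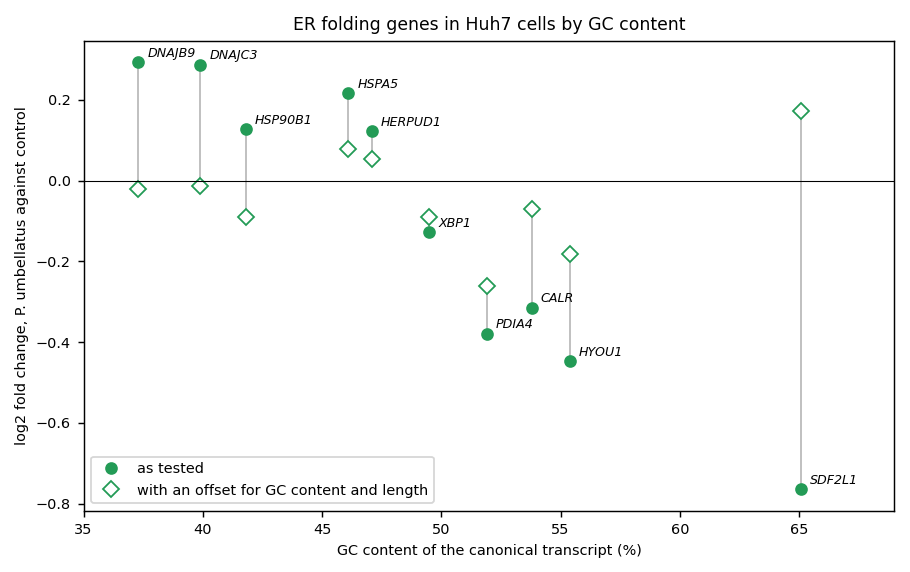
Log2 fold change of the 10 genes in Huh7 with P. umbellatus against control, plotted against the GC content of the canonical transcript in percent, before and after the correction for GC content and length. SDF2L1 moves from −0.76 to 0.17 and DNAJC3 from 0.29 to −0.01, while PDIA4 stays below 0 at −0.26.

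The rest of the pathway was read from 6 lists that hold 82 genes and leave out the 10 members, of which 79 were tested in A549 and 81 in Huh7. In A549 12 list genes rose and 11 fell with P. chinensis, while with B. chinense the counts were 12 and 13, and 14 and 6 for P. umbellatus. Under upper quartile scaling the split was 19 and 7, 14 and 7, and 18 and 4. In Huh7 11 rose and 12 fell with P. chinensis (13 and 9 under upper quartile scaling), while with B. chinense the counts were 1 and 2, and 13 and 21 for P. umbellatus (10 and 15 after the GC correction). The shares of all genes called in these comparisons are those given for the 10 genes, and the median log2 fold change of the list genes lay between −0.05 and 0.06.

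The genes of ER-associated degradation, whose products extract misfolded chains and send them to the proteasome, were called in 1 direction in A549. Of 18 tested, 5, 6 and 6 rose with the 3 herbs in the order used above, and none fell in any of these comparisons. Of all genes tested in A549, 32.8%, 28.1% and 28.2% were called in either direction, and 15.8%, 13.1% and 13.4% were called higher. The number of degradation genes called in either direction was thus near the share of all genes. EDEM1 and EDEM3, which trim mannose from misfolded glycoproteins, the lectin ERLEC1, and the ligase pair SEL1L and SYVN1 rose with all 3 herbs; these 5 were picked out after their values were seen. SEL1L was at 206, 185 and 191 CPM in A549 control cells and at 231, 232 and 224 CPM with P. chinensis, a rise of 0.24 ± 0.047 (edgeR adjusted p = 0.00125). In Huh7 5 degradation genes rose and 1 fell with P. chinensis (background 20.9%). None was called there with B. chinense by edgeR (3 at an unadjusted p below 0.05, background 1.28%). With P. umbellatus 4 rose and 1 fell in Huh7 before the GC correction, and 37% of all genes were called there. EDEM1 was the gene that fell in Huh7 with P. chinensis (−0.29 ± 0.091, edgeR adjusted p = 0.0415). The values of the single degradation genes named here were not followed through the GC correction or the other fits.

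Of the further folding genes, the lumen chaperones had 10 calls in Huh7 with P. umbellatus and 0 to 3 in the other herb comparisons, and the isomerases and the translocation genes had 3 each there and 0 to 4 in the others. In Huh7 with P. umbellatus 37% of all genes tested were called, against 1.28% to 32.8% in the other herb comparisons. Counts of the single lists after the GC correction are not given here. Among 19 further chaperones and co-chaperones of the ER lumen, 0 rose and 2 fell in A549 with P. chinensis, 1 and 2 with the next herb and 1 and 1 with the last, and in Huh7 0 and 2, 0 and 0, and 3 and 7. GANAB, a subunit of glucosidase II that trims glycans for the calreticulin cycle, fell by 0.44 with P. chinensis in A549 (−0.44 ± 0.062, edgeR adjusted p = 7.313e-05). MOGS, glucosidase I, fell by 1.93 with P. umbellatus in Huh7 (−1.93 ± 0.38, edgeR adjusted p = 0.00341) and by 1.36 after the GC correction (adjusted p = 0.00530). Among 12 disulfide isomerases and oxidases beside PDIA4, 0 rose and 4 fell, 1 and 3, and 1 and 1 in A549 in the same order of herbs, and 0 and 2, 0 and 0, and 1 and 2 in Huh7. Of 13 genes of translocation into the ER the counts were 1 and 2, 1 and 3, and 3 and 1 in A549, and 0 and 3, 0 and 0, and 1 and 2 in Huh7. The counts of 0 with B. chinense in Huh7 stand beside 1, 2 and 1 genes at an unadjusted p below 0.05 for the chaperones, isomerases and translocation genes.

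**Figure D5:**
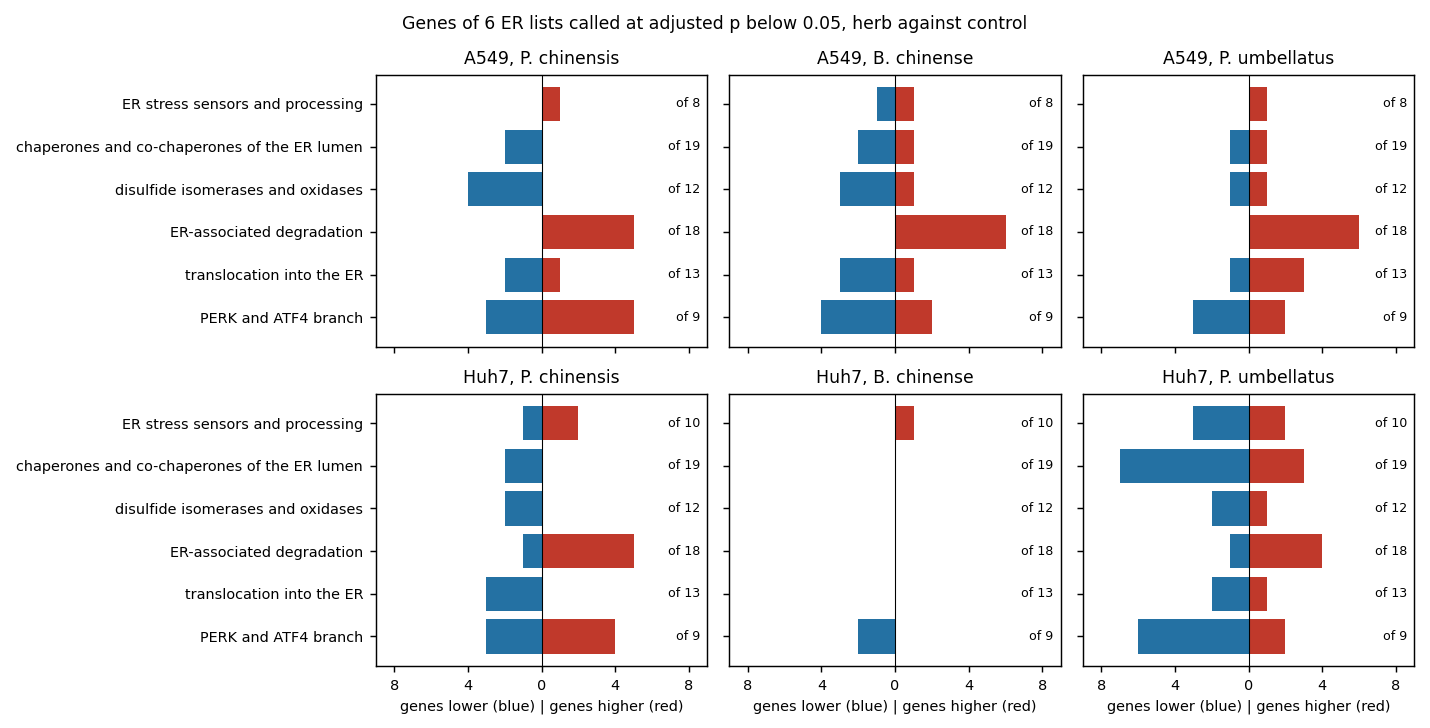
Number of genes called higher and lower against control in each of the 6 pathway lists, by herb and line, from the edgeR fits at an adjusted p below 0.05. Degradation genes in A549 have 5, 6 and 6 genes called higher and 0 called lower, and Huh7 with B. chinense has 1 called higher and 2 called lower over all lists.

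The mRNAs of the sensors had no direction shared by all 6 comparisons. ERN1, which encodes IRE1, was called in none of the 6 herb comparisons, with log2 fold changes between −0.05 and 0.13. EIF2AK3, which encodes PERK, fell by 0.91 with P. umbellatus in Huh7 (−0.91 ± 0.29, edgeR adjusted p = 0.0294), a call lost without Huh7 control replicate 2 (−0.75, 0.1003) or 3 (−0.86, 0.0792) or P. umbellatus replicate 1 (−0.63, 0.0842), and it was called in no other herb comparison. After the GC correction the EIF2AK3 value was −1.10 (adjusted p = 0.0179). ATF6 fell by 0.40 with B. chinense in A549 (−0.40 ± 0.094, edgeR adjusted p = 0.00494). In Huh7 ATF6 rose by 0.69 ± 0.082 with P. umbellatus (edgeR adjusted p = 0.000381, and 0.42 after the GC correction), by 0.27 ± 0.081 with P. chinensis (0.0327) and by 0.38 ± 0.082 with B. chinense (0.0457). The last 2 of these calls held in 4 and 3 of the 12 refits that left out 1 library, with adjusted p of up to 0.142 and 0.188. The P. chinensis call was lost without any 1 of the Huh7 control or P. chinensis libraries or B. chinense replicate 1 or 2, and the B. chinense call without any 1 of the control, B. chinense or P. chinensis libraries.

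In the branch of PERK and ATF4, ATF3 and SESN2 rose with all 3 herbs in A549, while ATF4 and its amino acid target ASNS fell. Of its 9 genes, 5 rose and 3 fell in A549 with P. chinensis, 2 and 4 with the next herb and 2 and 3 with the last, and in Huh7 4 and 3, 0 and 2, and 2 and 6. The last counts, for P. umbellatus in Huh7, are before the GC correction, and 37% of all genes were called there. The share of all genes called was 32.8%, 28.1% and 28.2% in A549, and 20.9% and 1.28% in Huh7 with P. chinensis and B. chinense. ATF3, a stress-induced repressor, was at 1.77, 1.67 and 0.579 CPM in A549 control cells and at 11.9, 7.79 and 16.2 CPM with P. chinensis. It rose in A549 by 3.003 ± 0.37, 1.89 ± 0.38 and 1.67 ± 0.38 with the 3 herbs (edgeR adjusted p of 9.553e-06, 0.000905 and 0.00201). In Huh7 it rose by 1.82 ± 0.14 with P. chinensis (edgeR adjusted p = 5.213e-06) and by 0.64 ± 0.15 with P. umbellatus (0.00742, and 0.71 after the GC correction). DDIT3, the pro-apoptotic factor CHOP, was at 13.1, 16.3 and 13.3 CPM in Huh7 control cells and at 37.6, 35.5 and 31.8 CPM with P. chinensis. It rose with P. chinensis by 1.29 ± 0.13 in Huh7 (edgeR adjusted p = 2.866e-05) and by 1.57 ± 0.28 in A549 (0.000425). With B. chinense and P. umbellatus DDIT3 was not called in A549 (0.26 ± 0.29 and 0.12 ± 0.29), and its call with P. umbellatus in Huh7 (0.37 ± 0.13, edgeR adjusted p = 0.0488) held in 2 of 12 refits that left out 1 library, those without control replicate 2 or P. umbellatus replicate 2 (adjusted p of up to 0.147 in the others). That DDIT3 call also held in 3 of 9 other settings, the GC correction among them (0.52, 0.0110). In Huh7 with B. chinense DDIT3 was not called before the GC correction but was called after it (0.60, edgeR adjusted p = 0.0104). SESN2, which restrains mTORC1, rose in A549 by 1.69 ± 0.14, 1.39 ± 0.14 and 1.15 ± 0.14.

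ATF4 itself fell in A549 by 0.33, 0.52 and 0.38 with the 3 herbs (−0.33 ± 0.060, −0.52 ± 0.061 and −0.38 ± 0.060), and ASNS, asparagine synthetase, by 0.23, 0.52 and 0.37 (−0.23 ± 0.081, −0.52 ± 0.082 and −0.37 ± 0.081, edgeR adjusted p of 0.0449, 0.000299 and 0.00326). In Huh7 the ATF4 differences were −0.10 ± 0.077 and −0.18 ± 0.077 with P. chinensis and B. chinense, neither called (edgeR adjusted p of 0.401 and 0.359). ATF4 fell there by 0.31 with P. umbellatus (−0.31 ± 0.077, edgeR adjusted p = 0.00976), a call lost after the GC correction (−0.08, 0.183), which brought the P. chinensis value past the threshold (−0.15, 0.00863). In Huh7 ASNS was at 164, 188 and 182 CPM in control cells and at 84.7, 83.8 and 83.1 CPM with P. chinensis, a fall of 1.08 (−1.08 ± 0.095, edgeR adjusted p = 1.05e-05). ASNS also fell there by 0.85 with B. chinense and 0.43 with P. umbellatus (−0.85 ± 0.096 and −0.43 ± 0.096). The ASNS values in Huh7 with P. umbellatus and in A549 with P. chinensis were not followed through the GC correction or the other fits. TRIB3, a pseudokinase induced by ATF4 and CHOP, fell in Huh7 by 0.96 with P. chinensis (−0.96 ± 0.11, edgeR adjusted p = 6.074e-05). Its fall of 0.66 with B. chinense (−0.66 ± 0.11, edgeR adjusted p = 0.0101) was lost without B. chinense replicate 1 (0.0619) or 2 (0.0642) or control replicate 2 (0.0598). The further genes named by the rule were PPP1R15A (GADD34, which restarts translation), which rose by 1.71 ± 0.19 with P. chinensis in Huh7, CEBPB, which fell by 0.37 with P. chinensis in A549, and CHAC1, which degrades glutathione and fell by 1.40 with P. umbellatus in Huh7 (0.76 after the GC correction).

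The genes with the pattern most like that of HSPA5 were looked for among all genes tested in both lines. The measure was Pearson's r of log2 CPM over 24 libraries, each line centred on its own mean. Among those highest in it were APP (r = 0.938), SUSD1 (0.911), MCL1 (0.907) and PICALM (0.902). Leaving out Huh7 P. umbellatus replicate 2 gave 0.935, 0.900, 0.894 and 0.896. The libraries share their control groups and, in Huh7, the GC-related shift, so these are descriptions of the pattern. Among the members DNAJC3 was the most like HSPA5 (r = 0.765), PDIA4 (−0.55) and XBP1 (−0.567) ran against it, and CALR ran with HSPA5 in A549 (0.704) and against it in Huh7 (−0.839).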

How the data were processed

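Each line, A549 or Huh7, gave 3 RNA-seq libraries for each of 4 treatments. The authors checked reads with FastQC and quantified them with kallisto on the GRCh38.p13 transcripts, and the deposited table holds the estimated count of each gene as a whole number. How transcripts were summed and rounded is not given in the sources used here. No deposited column was left out (0 unused). Genes that the annotation calls protein coding whose mean over a line's 12 libraries exceeded 5 counts were tested with edgeR 4.0.16 (R 4.3.3), using TMM scaling, a prior count of 2 and the quasi-likelihood test, in 1 fit per line over 4 groups, and in 1 fit over 24 libraries for line comparisons. The Benjamini-Hochberg adjustment ran over all genes tested (threshold 0.05). Standard errors come from the fitted model, and intervals are at the 95% level. The scripts were tested on simulated data. Counting error, which depth sets, is part of the spread between libraries.

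Alternatives were DESeq2 1.42.0, limma 3.58.1 (voom with quality weights), RLE and upper quartile scaling, no filter, filterByExpr, the 6 compared libraries alone, a replicate block and leaving out each library. Corrections for GC content and transcript length, and fits without the Huh7 P. umbellatus libraries, were added after seeing the data. The members and lists were chosen with earlier results of these data known. Beyond the 10 members, the genes named were, per herb comparison, up to 2 list genes with the largest rise and 2 with the largest fall among those called, averaging 50 counts or more and not overlapping with control libraries, plus ERN1, EIF2AK3, ATF6, ATF4 and DDIT3, and the 5 genes most like HSPA5, of which 1 is not reported here. A pseudocount of 0.5 was used for that likeness. The degradation genes EDEM1, EDEM3, ERLEC1, SEL1L and SYVN1 were named outside the rule above, after their values were seen. Promoter sequences are from RefSeq (GRCh38.p14), and gene positions are from the GENCODE annotation of the same build.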

Additional observations from a re-analysis of the deposited data

Results flagged for a closer look

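The responses of 5 of the 10 genes differed between A549 and Huh7 cells for at least 1 herb by the interaction test of edgeR, with the difference given as A549 minus Huh7. For P. chinensis these were CALR (0.28), HYOU1 (0.76), DNAJC3 (0.34) and PDIA4 (0.30), where 19.6% of all genes differed. For B. chinense they were CALR (0.41), HYOU1 (0.60) and XBP1 (−0.33), where 11.6% differed. For P. umbellatus they were CALR (0.71), HYOU1 (0.87) and PDIA4 (0.39), where 34.4% differed, so that 3 of the 10 genes is near the share of all genes. After the correction for GC content and length the P. umbellatus values were 0.41, 0.46 and 0.21, all still called. Groups of 3 libraries were too small for the test of single stray samples.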

How the results depend on the processing

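Counts of members called moved by over 1.5 times as follows. In Huh7 with P. chinensis they went from 4 to 7 without the Huh7 P. umbellatus libraries, with the 6 compared libraries alone and with voom quality weights. In Huh7 with B. chinense they went from 1 to 4 without those libraries and with voom, 3 with the 6 libraries alone, and 2 with DESeq2 and the GC correction. In Huh7 with P. umbellatus they went from 5 to 2 with the GC correction and with the 6 libraries alone. P. chinensis against B. chinense in A549 went from 0 to 1 with DESeq2, RLE scaling, filterByExpr, voom and the GC correction. P. chinensis against P. umbellatus in A549 went from 1 to 2 with DESeq2 and 0 with upper quartile scaling and the replicate block. P. chinensis against B. chinense in Huh7 went from 3 to 1 with the replicate block, and B. chinense against P. umbellatus from 4 to 1 with the GC correction. The line differences went from 3 to 5 for B. chinense (GC correction, voom, no Huh7 P. umbellatus libraries) and from 3 to 5 for P. umbellatus (DESeq2, GC correction). The share of all genes called under each setting is not given here, so these moves cannot be read as particular to the 10 genes. The cause was not tested.

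Leaving out 1 library gave 4 to 7 called members in Huh7 with P. chinensis, 0 to 3 with B. chinense and 3 to 8 with P. umbellatus. It gave 0 to 2 for P. chinensis against P. umbellatus in A549, and in Huh7 0 to 4 for P. chinensis against B. chinense, 3 to 8 for P. chinensis against P. umbellatus and 1 to 8 for B. chinense against P. umbellatus. The line differences ran from 2 to 5 for B. chinense and 3 to 7 for P. umbellatus. For these ranges too the share of all genes called is not given.

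Directions turned for log2 values near 0 or tied to GC content. Among the values the report gives, these were with the GC correction CALR in Huh7 between P. chinensis and P. umbellatus (−0.062), DNAJB9 in A549 with B. chinense (0.11), ERN1 in A549 with B. chinense (−0.058) and P. umbellatus (−0.025) and in Huh7 with P. chinensis (0.040), and in Huh7 with P. umbellatus DNAJB9 (−0.021), DNAJC3 (−0.013), HSP90B1 (−0.091) and SDF2L1 (0.17), as well as the line differences of SDF2L1 for P. umbellatus (−0.14) and XBP1 for P. chinensis (0.0465). With upper quartile scaling they were DNAJB9 in A549 with B. chinense (0.026), DNAJB9 and DNAJC3 in Huh7 with P. chinensis (0.0096 and 0.01005) and ERN1 there (0.042), and the DNAJB9 line difference for P. umbellatus (−0.022), which was −0.035 with DESeq2 and −0.034 with RLE. The XBP1 line difference for P. chinensis was 0.016 with voom, 0.034 with filterByExpr and 0.035 without a filter. ERN1 was −0.13 in A549 with B. chinense and −0.083 in Huh7 with P. umbellatus with voom, and −0.0091 in the latter with the 6 libraries alone. EIF2AK3 in A549 with P. umbellatus was −0.0058 with the replicate block. Between herbs, values that the report does not give turned as well: in Huh7 SDF2L1 (to −0.32 for P. chinensis and −0.35 for B. chinense against P. umbellatus), HYOU1 (to −0.025 for B. chinense against P. umbellatus) and HSPA5 (to 2.602e-05 for P. chinensis against P. umbellatus), and in A549 CALR, HYOU1, SDF2L1 and DNAJC3, whose values without the change were −0.064 to −0.0019.

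Leaving out 1 library turned further values that were not called. In A549 the ranges were −0.028 to 0.31 for DDIT3 with P. umbellatus, −0.079 to 0.021 for DNAJB9 with B. chinense, −0.25 to 0.33 and −0.24 to 0.34 for EIF2AK3 with B. chinense and P. umbellatus, −0.23 to 0.40 and −0.12 to 0.26 for ERN1 with the same herbs, and for SDF2L1 −0.040 to 0.099 with P. chinensis, −0.065 to 0.27 with B. chinense, and −0.34 to 0.13 with the remaining herb. In Huh7 they were −0.0996 to 0.016 for DNAJB9, −0.091 to 0.01038 for DNAJC3, −0.14 to 0.24 for EIF2AK3 and −0.088 to 0.11 for ERN1 with P. chinensis, and −0.17 to 0.068 and −0.072 to 0.14 for ERN1 with B. chinense and P. umbellatus. Among line differences they were −0.13 to 0.13 for DNAJB9, −0.072 to 0.1011 for DNAJC3 and −0.049 to 0.083 for HSPA5 with P. umbellatus, −0.16 to 0.016 for HERPUD1 with B. chinense and −0.061 to 0.062 for XBP1 with P. chinensis.

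The replicate numbers did not pair the libraries, since same-numbered libraries had correlations of −0.0607 to 0.0663 and 0 of 18 pairs in either line exceeded 0.1. With the replicate block the calls of CALR in A549 with P. chinensis (adjusted p = 0.0569 by edgeR) and against P. umbellatus (0.0568), HERPUD1 and XBP1 in Huh7 between P. chinensis and B. chinense (0.0706 and 0.0693), ATF6 in Huh7 with B. chinense (0.0783) and DDIT3 in Huh7 with P. umbellatus (0.0639) were lost.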
